A study of Mus musculus with 36 samples.

Results

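Th1 cells that carried an empty retrovirus were compared between mice with and without the Ets1-SE-KO allele, so that both sides of the comparison had been through transduction. The comparison used 8 of the 36 RNA-seq libraries of the series. Of these, 4 are named by their deposited files as KO cells with empty virus and 4 as WT cells with empty virus. Naive CD4+ T cells were isolated from spleens of C57BL/6J or C57BL/6J-Ets1-SE-KO mice and cultured with plate-bound anti-CD3, soluble anti-CD28, IL-12 and IL-2, which drive the Th1 state. In the study's own naming SE stands for the super-enhancer near Ets1. Both groups carried the same empty virus, and only the KO side is named as carrying the deletion. Neither the age of the mice nor any sort of transduced cells is stated in the labels. The same run also held Ets1-virus cultures (4 libraries per genotype) and untransduced cultures (2 per genotype), and an earlier experiment gave 3 KO and 3 WT Th1 libraries. Each library has a B number and a T number in its label and each empty-virus group had B numbers 1 and 2 with T numbers 1 and 2.

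The labels of the KO side contradict each other. The titles of the 4 KO libraries call them WT cells with Ets1 virus and their strain label is C57BL/6J, while their transduction label says empty vector and their file names say KO with empty virus. The groups below follow the file names, and the libraries are called KO-filed and WT-filed throughout. As a check, Gm27162, a long noncoding RNA gene downstream of Ets1, had 0 counts in each of the 4 KO-filed empty-virus libraries, against 8 to 21 counts in each of the 4 WT-filed ones. It was also at 0 in the 4 KO-filed Ets1-virus libraries and the 2 untransduced KO libraries, and had 5 to 43 counts in each of the 6 other WT-filed libraries. The level of Ets1 went the same way as the file names: 194 to 261 counts per 1000000 gene counts (CPM) in the KO-filed empty-virus libraries and 336 to 349 CPM in the WT-filed empty-virus libraries, against 377 to 457 CPM in KO-filed and 606 to 660 CPM in WT-filed libraries whose files name Ets1 virus. File names also give B number 1 as male and B number 2 as female. Xist was at 0 to 1 count in B number 1 and the Y-linked Ddx3y at 0 in B number 2 of both empty-virus groups. Sex and B number therefore cannot be told apart.

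Th1 cells are the CD4+ helper cells that secrete interferon gamma and act against intracellular microbes. IL-12 signals through Stat4, and the factor T-bet, encoded by Tbx21, opens and drives Ifng, while T-bet and Gata3, the leading factor of Th2 cells, restrain each other. Ets1 is a lymphocyte transcription factor of the ETS family, whose members bind DNA at a GGAA core, and it is known to work with T-bet at Ifng.

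The results below turn on 2 genes of the Th1 programme and 2 of the Th2 programme, and their promoters are shown because both pairs moved in opposite directions in cells with less Ets1 RNA. The sequences run from 250 bases before to 50 bases after the gene start in RefSeq and come from build GRCm38.p6. For Gata3 the GENCODE annotation, which gave the gene symbols, puts the start farther upstream, at base 9890034. The Gata3 window therefore lies inside the gene as GENCODE has it. Capitals mark GGAA, or TTCC where the core lies on the other strand.
Ifng, chr10:118440796-118441095, plus strand: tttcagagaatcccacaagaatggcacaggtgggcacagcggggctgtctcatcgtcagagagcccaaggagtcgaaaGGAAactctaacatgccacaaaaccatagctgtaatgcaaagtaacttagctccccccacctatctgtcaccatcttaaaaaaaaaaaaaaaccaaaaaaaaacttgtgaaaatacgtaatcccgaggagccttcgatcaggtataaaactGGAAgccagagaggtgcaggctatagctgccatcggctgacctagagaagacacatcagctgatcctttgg
Tbx21, chr11:97115282-97115581, minus strand: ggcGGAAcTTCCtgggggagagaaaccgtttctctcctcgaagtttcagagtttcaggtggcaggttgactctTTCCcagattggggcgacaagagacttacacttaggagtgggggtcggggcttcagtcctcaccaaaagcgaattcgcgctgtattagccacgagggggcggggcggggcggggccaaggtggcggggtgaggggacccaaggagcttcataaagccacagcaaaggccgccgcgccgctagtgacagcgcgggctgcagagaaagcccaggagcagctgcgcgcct
Gata3, chr2:9878551-9878850, minus strand: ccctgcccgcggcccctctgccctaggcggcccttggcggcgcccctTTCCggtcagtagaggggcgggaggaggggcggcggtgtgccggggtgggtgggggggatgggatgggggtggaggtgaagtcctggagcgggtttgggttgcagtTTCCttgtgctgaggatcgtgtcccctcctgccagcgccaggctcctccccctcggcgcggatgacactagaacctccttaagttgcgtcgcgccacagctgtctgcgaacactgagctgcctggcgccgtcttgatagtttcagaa
Il13, chr11:53634653-53634952, minus strand: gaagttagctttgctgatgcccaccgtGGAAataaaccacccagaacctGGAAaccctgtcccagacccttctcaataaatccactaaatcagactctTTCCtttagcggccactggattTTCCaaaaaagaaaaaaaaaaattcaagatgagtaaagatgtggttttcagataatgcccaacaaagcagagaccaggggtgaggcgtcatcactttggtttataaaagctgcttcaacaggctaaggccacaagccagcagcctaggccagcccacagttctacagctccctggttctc
The core occurred 2 times in the Ifng window, 3 times in that of Tbx21, 2 times in that of Gata3 and 4 times in that of Il13, counting both strands and with no overlapping matches. At least 1 core is present in 96.0% of the 32851 promoters of this length, with a median of 3, so it does not set the genes that were lower apart from those that were higher. The longer motif CCGGAAGT, searched on both strands, was in 3.89% of all promoters and in none of these 4 windows. These matches are letters in a window and say nothing of binding.

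In the KO-filed cells Ifng, Tbx21, the chemokine genes Ccl3 and Ccl4 and the perforin gene Prf1 were lower, and Gata3, Il13, Ccr8, Nfil3 and Maf were higher than in WT-filed cells. Gata3 was 4.46-fold higher and Il13 5.42-fold higher, while Ifng was 2.70-fold lower and Tbx21 1.89-fold lower. Of the cytotoxic granule genes, Prf1 and Gzmc were lower and the granzyme gene Gzma was 5.19-fold higher. No gene of the lists of Th1 receptors, T cell receptor signalling or interferon gamma response passed the test, and 9 of 24 cell division genes were lower. Of 11275 genes tested, 188 were higher (1.67%) and 192 lower (1.7%), together 3.37%, at an adjusted p under 0.05 with edgeR's quasi-likelihood test. The counts of called list members below are to be read against these shares. Of the 60 named genes that were called, 46 lost the call in 1 or more of 19 alternative analyses. The number of calls rests on the few sums: DESeq2 called 186 genes, and leaving out a B-number sum gave 227 (KO-filed 1), 73 (KO-filed 2), 128 (WT-filed 1) or 236 (WT-filed 2). Levels are given below per library as CPM after trimmed-mean (TMM) scaling, always in the order B1T1, B1T2, B2T1, B2T2. The 4 libraries of a group are 2 T numbers in each of 2 B numbers and not 4 independent samples. Groups that do not overlap are therefore a description and no test, and the share of all genes with such groups is not given. Means with SD are over the 2 B-number sums of each group. Each log2 fold change (KO-filed over WT-filed) is from the fit on all 12 B-number sums of the run. Its SE and p-value therefore also draw on the spread of the Ets1-virus and untransduced sums. B numbers 1 and 2 differ in sex by file name and by Xist and Ddx3y, so their cells came from different mice. The labels do not say how many mice a B number holds. The p-values measure only the spread between these few samples, part of which may be technical. RNA levels in such bulk cultures cannot tell fewer expressing cells from less RNA per cell.

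At the Ets1 locus on chromosome 9, Ets1 (chr9:32636221-32757820, plus strand, GRCm38) had 195, 194, 261 and 247 CPM in the KO-filed libraries, against 343, 336, 342 and 349 CPM in the WT-filed libraries. All KO-filed values lay below all WT-filed values, and the KO-filed values were lower in B number 1 than in B number 2. The mean was 224 ± 43.3 CPM in KO-filed and 343 ± 4.39 CPM in WT-filed cells (SD, n = 2 sums), a log2 fold change of -0.61 ± 0.13 (SE, adjusted p = 0.015). Because the level of Ets1 also served to check the file names, this value describes the groups and is no independent test of them. Within B number 1 the log2 fold change of Ets1 was -0.81 and within B number 2 it was -0.44. The difference between B numbers was 0.38 ± 0.09 on the log2 scale, with an adjusted p of 0.000438 in a fit over single libraries, whose spread is that of T numbers only.

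Gm27162 (chr9:32904937-32928966, minus strand), a lincRNA gene, had 0, 0, 0 and 0 CPM in the KO-filed libraries, against 3.82, 3.89, 3.69 and 3.42 CPM in the WT-filed libraries. It was absent from the counts of the whole KO-filed group and steady across the WT-filed libraries. Against a floor of 3 counts over the 14163903 gene counts of the KO-filed group, the 59 counts of the WT-filed group make it at least 18.6-fold lower in KO-filed cells. Since this gene served to check the file names, its level is a description and no test of it is given. Fli1 (chr9:32422204-32542861, minus strand), the neighbouring ETS gene, had 38.3, 34.8, 40.1 and 50.2 CPM in the KO-filed libraries, against 42.3, 40.4, 37.4 and 44.8 CPM in the WT-filed libraries. The groups overlapped, with a log2 fold change of -0.06 ± 0.13 and an adjusted p of 0.891, and the sign of this value was positive when a B number 2 library of the KO-filed group or the B number 1 sum of the WT-filed group was left out. Within 1000000 bases of Ets1, 7 genes were tested. Apart from Gm27162 and Ets1, which both served to check the file names, none was called.

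**Figure D1:**
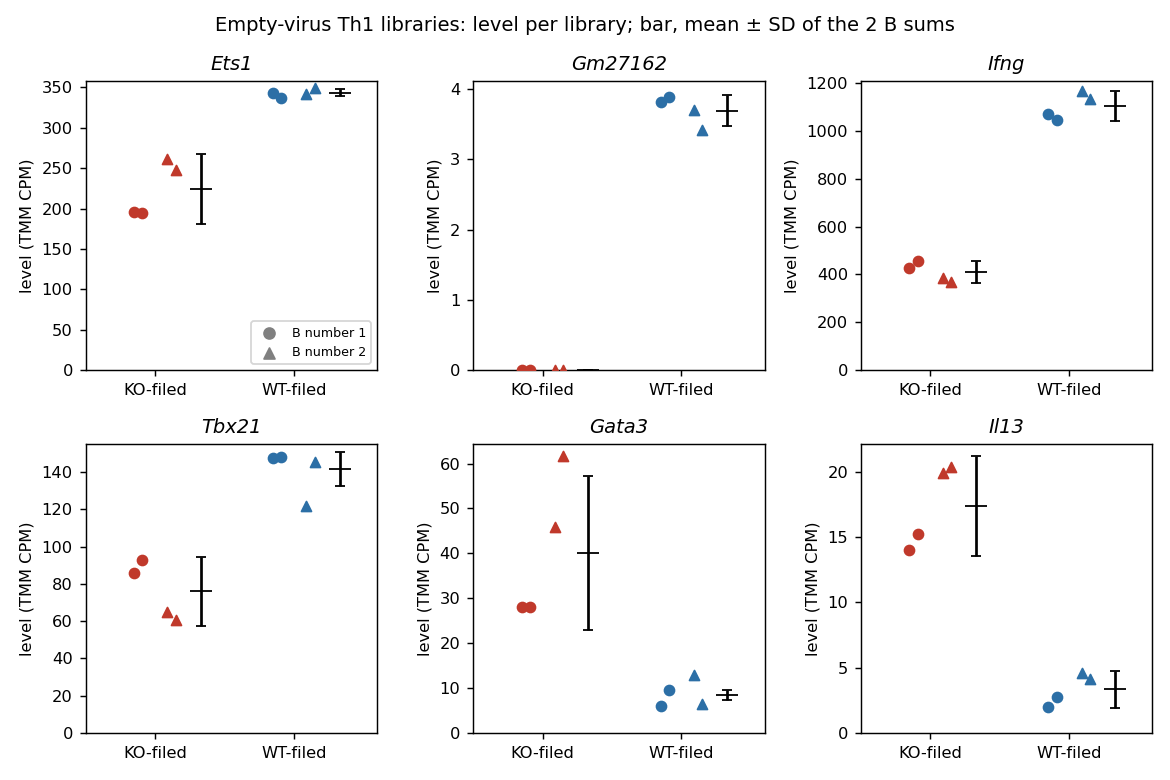
Level of 6 genes in each empty-virus library (y axis, TMM-scaled CPM from 0; KO-filed left, WT-filed right; circles B number 1, triangles B number 2; black bars mean ± SD of the 2 B-number sums). For Ets1, Gm27162, Ifng and Tbx21 all KO-filed points lie below the WT-filed ones, and for Gata3 and Il13 all lie above them.

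Of the 9 Th1 factors and Ifng, all tested, none was higher and Ifng and Tbx21 were lower, while the median log2 fold change of the list was 0.05, against -0.0027 over all genes tested. Ifng, the defining cytokine of the lineage, had 428, 455, 384 and 367 CPM in the KO-filed libraries, against 1071, 1045, 1168 and 1132 CPM in the WT-filed libraries. Every KO-filed library lay far below every WT-filed library. The mean of Ifng was 409 ± 45.9 CPM in KO-filed and 1103 ± 62.2 CPM in WT-filed cells, a log2 fold change of -1.43 ± 0.20 (adjusted p = 0.000464). It was -1.26 within B number 1 and -1.61 within B number 2, and this difference of -0.33 ± 0.07 had an adjusted p of 5.35e-05 in the fit over single libraries.

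Tbx21 had 85.6, 92.5, 64.6 and 60.7 CPM in the KO-filed libraries, against 147, 148, 122 and 145 CPM in the WT-filed libraries. The groups did not overlap, and the B number 2 libraries were lowest among the KO-filed ones. The log2 fold change of Tbx21 was -0.92 ± 0.14 (adjusted p = 0.000973). Stat4, the transducer of IL-12, had 15.3, 19.6, 18.7 and 15.3 CPM in the KO-filed libraries, against 24.2, 30.5, 23.1 and 24.3 CPM in the WT-filed libraries. No KO-filed value reached a WT-filed one, and at -0.50 ± 0.21 on the log2 scale the gene was not called (adjusted p = 0.221). Irf1, Hlx, Runx3, Twist1 and Eomes had log2 fold changes between -0.32 and 0.22, and none passed the test.

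None of the 9 tested Th1 receptor genes was called in either direction, where 3.37% of all genes were, so that the count is near the background. The median log2 fold change of the list was -0.03. Il12rb2, the inducible chain of the IL-12 receptor, had 476, 467, 489.7 and 482 CPM in the KO-filed libraries, against 448, 471, 444 and 489 CPM in the WT-filed libraries. Its groups overlapped, at a log2 fold change of 0.04 ± 0.11 and an adjusted p of 0.917. Il18rap, a chain of the IL-18 receptor, had 12.8, 5.25, 8.38 and 9.85 CPM in the KO-filed libraries, against 14.2, 16.7, 15.2 and 16.7 CPM in the WT-filed libraries. The values did not overlap, and the gene was not called at a log2 fold change of -0.82 ± 0.24 (adjusted p = 0.0709).

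Among Th1 effector cytokines and chemokines, 6 of 8 were tested, 0 were higher and Ccl3 and Ccl4 were lower. Ccl3, an inflammatory chemokine, had 15.97, 16.7, 22.8 and 19.5 CPM in the KO-filed libraries, against 49.4, 50.7, 40.2 and 55.4 CPM in the WT-filed libraries. The highest KO-filed value was well under the lowest WT-filed value, and the log2 fold change was -1.35 ± 0.20 (adjusted p = 0.000826). Ccl4, its close relative, averaged 16.3 ± 0.759 CPM in KO-filed and 27.2 ± 3.50 CPM in WT-filed cells, a log2 fold change of -0.78 ± 0.18 (adjusted p = 0.0218). Ccl5, Lta and Tnf had log2 fold changes of -0.45, -0.29 and -0.22, and Csf2 one of 1.05, none of which passed the test. Il2 and Xcl1 were too low to be tested.

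Of the 8 Th2 factors 7 were tested, 4 were higher (Gata3, Nfil3, Maf and Zbtb32) and 0 lower, with a median log2 fold change of 0.86. Among all genes tested 1.67% were higher. Gata3 (chromosome 2) had 28.1, 28.1, 45.8 and 61.6 CPM in the KO-filed libraries, against 6.00, 9.52, 12.9 and 6.49 CPM in the WT-filed libraries. Every KO-filed library was above every WT-filed library, and the B number 2 libraries of the KO-filed group were the highest. Gata3 averaged 40.1 ± 17.1 CPM in KO-filed and 8.47 ± 1.08 CPM in WT-filed cells, a log2 fold change of 2.16 ± 0.21 (adjusted p = 2.63e-05). This call held in all 19 alternative analyses, with a log2 fold change between 1.88 and 2.48.

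Nfil3, a basic leucine zipper factor that is also active outside Th2 cells, had 154, 152, 180.2 and 186 CPM in the KO-filed libraries, against 88.1, 87.8, 84.98 and 103 CPM in the WT-filed libraries. The groups were clearly apart, and the log2 fold change was 0.87 ± 0.12 (adjusted p = 0.000391). Maf, which drives Il4 in Th2 cells, averaged 21.8 ± 1.63 CPM in KO-filed and 11.1 ± 2.44 CPM in WT-filed cells, with an adjusted p of 0.0221. Zbtb32, a repressor that restrains Gata3 activity, averaged 87.8 ± 2.23 CPM in KO-filed and 64.5 ± 6.28 CPM in WT-filed cells (adjusted p = 0.0415), and its call was lost in 13 of 19 alternative analyses. Pparg, at 0.86 ± 0.40 on the log2 scale, was not called (adjusted p = 0.298), and its groups overlapped. Stat6, the transducer of IL-4, and Gfi1, a zinc finger repressor, had log2 fold changes of 0.06 and -0.16 and were not called either.

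Of 13 Th2 cytokine and receptor genes, 8 were tested, 4 were higher and 0 lower, with a median log2 fold change of 0.69. Il13, a Th2 cytokine that acts on epithelium, had 14.05, 15.3, 19.9 and 20.4 CPM in the KO-filed libraries, against 2.00, 2.72, 4.62 and 4.1 CPM in the WT-filed libraries. No KO-filed value came near the WT-filed range, and the log2 fold change was 2.44 ± 0.24 (adjusted p = 2.63e-05). Ccr8, a chemokine receptor of Th2 and regulatory T cells, had 12.8, 7.63, 13.9 and 12.6 CPM in the KO-filed libraries, against 1.45, 2.33, 1.39 and 2.39 CPM in the WT-filed libraries. The lowest KO-filed value lay above the highest WT-filed value, at a log2 fold change of 2.49 ± 0.32 (adjusted p = 0.000326). Ccr4, another Th2 receptor, averaged 41.5 ± 6.02 CPM in KO-filed and 25.1 ± 0.512 CPM in WT-filed cells (adjusted p = 0.0114). Il24, a cytokine gene expressed by Th2 cells, averaged 299.7 ± 21.1 CPM in KO-filed and 189 ± 27.9 CPM in WT-filed cells (adjusted p = 0.00396). Il1rl1, the receptor for IL-33, had the opposite sign. It averaged 1.68 ± 1.85 CPM in KO-filed and 5.39 ± 0.710 CPM in WT-filed cells, and its log2 fold change of -2.13 ± 0.58 missed the threshold (adjusted p = 0.0519). Its log2 fold change was -3.36 in untransduced cells and -1.10 in the first Th1 experiment, and it was called in neither. Il4ra and Rad50 had log2 fold changes of 0.17 and -0.11 and were not called.

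The Th2 cytokine genes Il4 and Il5 were too low for the test. Il4 had 22 counts over the KO-filed group and 2 over the WT-filed group, a ratio of 11.6 with an exact 95% counting interval of 2.85 to 102. Such intervals and the floor cover counting error only. Il5 had 13 counts over the KO-filed group, all in B number 2, and 0 over the WT-filed group, which makes it at least 4.57-fold higher against a floor of 3 counts over the WT-filed group. This bound pools the B numbers, whose depths differ between the groups. In untransduced cells Il5 had 1 count over the KO and 5 over the WT libraries. With Ets1 virus it had 10 counts over the KO-filed and 4 over the WT-filed libraries. Il10 averaged 9.70 ± 4.50 CPM in KO-filed and 4.98 ± 0.660 CPM in WT-filed cells, and its adjusted p was 0.166.

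**Figure D2:**
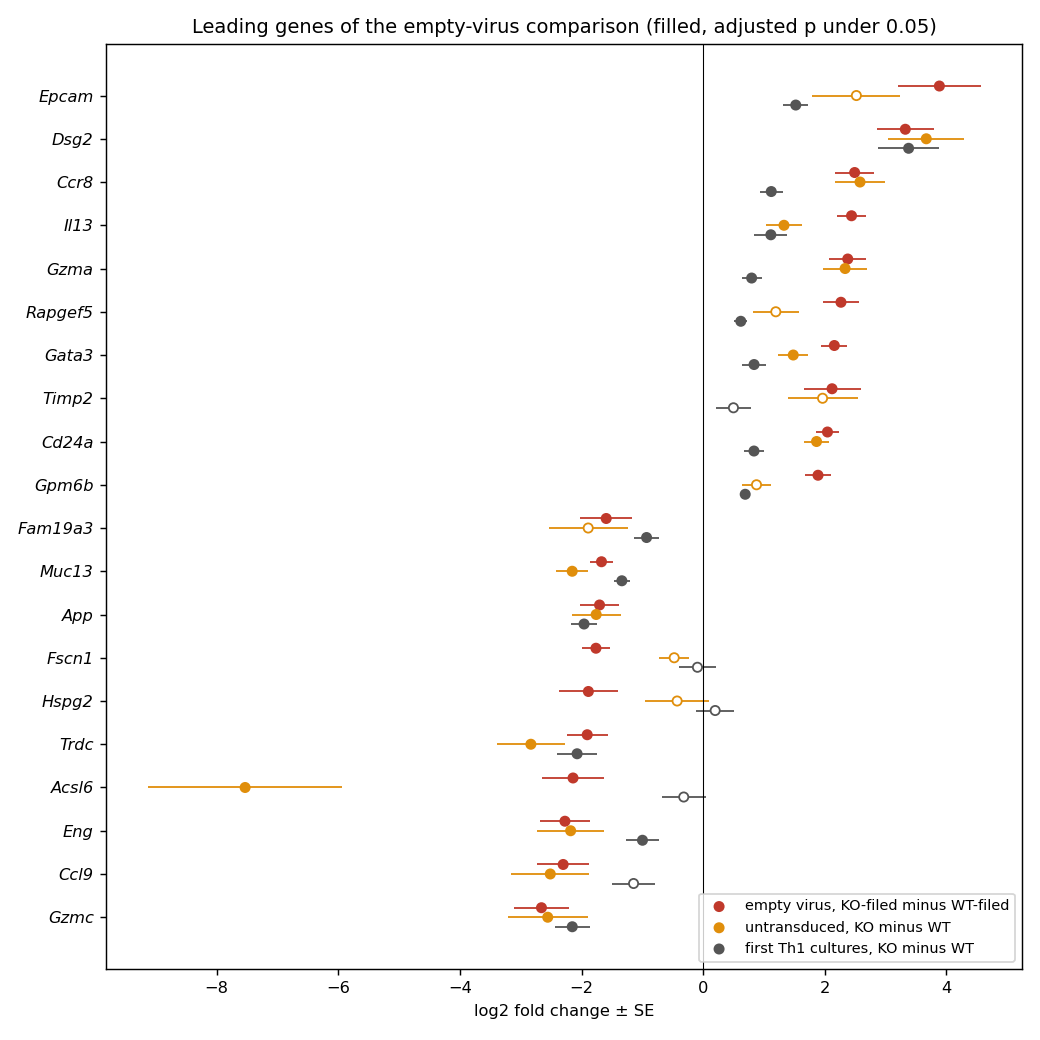
Log2 fold change ± SE (x axis) of the 10 genes with the largest increase and the 10 with the largest decrease in the empty-virus comparison (red), with the same genes in untransduced cells (orange) and in the first Th1 experiment (grey). Filled points passed an adjusted p of 0.05, and all of the red ones do because that chose them; the value of Acsl6 in untransduced cells rests on 0 counts in the KO libraries and is no measure of size.

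The 10 genes with the largest increase, among named protein-coding or annotated genes at 5 CPM or more, were Epcam, Dsg2, Ccr8, Il13, Gzma, Rapgef5, Gata3, Timp2, Cd24a and Gpm6b. Epcam, a cell adhesion molecule, had 5.11, 5.72, 6.95 and 4.58 CPM in the KO-filed libraries, against 0.182, 0.777, 0.462 and 0 CPM in the WT-filed libraries. It was near 0 in the WT-filed libraries and present in every KO-filed library, 14.8-fold higher in the fit (adjusted p = 0.00377). Dsg2, a desmosomal cadherin, had 7.66, 6.2, 6.32 and 10.1 CPM in the KO-filed libraries, against 0.909, 0.583, 0.924 and 0.342 CPM in the WT-filed libraries. It followed the same pattern and was 10.0-fold higher (adjusted p = 0.000607). Cd24a, a glycosylated surface protein of developing lymphocytes, had 36.4, 36.7, 33.8 and 33.4 CPM in the KO-filed libraries, against 10.00, 9.52, 7.39 and 7.52 CPM in the WT-filed libraries. Its libraries agreed closely within each group, and it was 4.12-fold higher (adjusted p = 2.58e-05). The log2 fold changes were 2.26 ± 0.30 for Rapgef5, a guanine nucleotide exchange factor for Rap proteins, 2.12 ± 0.47 for Timp2, a metalloproteinase inhibitor, and 1.89 ± 0.21 for Gpm6b, a membrane proteolipid.

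The 10 genes with the largest decrease were Gzmc, Ccl9, Eng, Acsl6, Trdc, Hspg2, Fscn1, App, Muc13 and Fam19a3. Muc13, a transmembrane mucin, had 7.66, 9.54, 12.2 and 9.16 CPM in the KO-filed libraries, against 34.2, 32.1, 34.2 and 27.00 CPM in the WT-filed libraries. The groups were far apart, at a log2 fold change of -1.67 ± 0.19 (adjusted p = 0.000151). App, the amyloid precursor protein gene, averaged 3.50 ± 0.334 CPM in KO-filed and 11.5 ± 2.63 CPM in WT-filed cells (adjusted p = 0.00526). Fscn1, an actin-bundling protein, had 22.99, 13.8, 7.11 and 5.96 CPM in the KO-filed libraries, against 45.4, 46.6, 28.6 and 30.4 CPM in the WT-filed libraries. No KO-filed value reached a WT-filed one, and within each group the B number 1 libraries were higher. Its log2 fold change was -1.76 ± 0.23 (adjusted p = 0.000326). Fscn1 was not called in untransduced cells (-0.48 ± 0.24, adjusted p = 0.355) or in the first Th1 experiment (-0.10 ± 0.30, adjusted p = 0.917).

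Ccl9, a chemokine, had 5.75, 6.2, 1.9 and 1.83 CPM in the KO-filed libraries, against 15.6, 16.5, 16.6 and 16.4 CPM in the WT-filed libraries. The WT-filed values were nearly level, while the KO-filed values of B number 2 were well under those of B number 1. The log2 fold change of Ccl9 was -2.30 ± 0.43 (adjusted p = 0.00516). Hspg2, the basement membrane proteoglycan perlecan, had 3.83, 4.77, 0.316 and 0.687 CPM in the KO-filed libraries, against 7.82, 7.77, 4.62 and 6.15 CPM in the WT-filed libraries. Here the groups overlapped, since 1 of the KO-filed values, that of B1T2, lay above the lowest WT-filed value, and its adjusted p was 0.0378. Eng, a TGF-beta co-receptor, fell to 1.28 ± 0.493 CPM in KO-filed cells, against 5.52 ± 0.239 CPM in WT-filed cells (adjusted p = 0.00472). Acsl6, a long-chain acyl-CoA synthetase, averaged 0.925 ± 0.540 CPM in KO-filed and 5.05 ± 0.632 CPM in WT-filed cells (adjusted p = 0.0274). Fam19a3, a secreted chemokine-like protein gene, averaged 2.47 ± 1.12 CPM in KO-filed and 6.93 ± 1.03 CPM in WT-filed cells, with an adjusted p of 0.0498, and its call was lost in 13 of 19 alternative analyses.

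Cytotoxic granule genes split. Of 16 genes 10 were tested, Gzma was higher and Prf1 and Gzmc were lower, with a median log2 fold change of -0.06. Gzma, a tryptase of cytotoxic granules, had 76.6, 68.7, 182 and 170.0 CPM in the KO-filed libraries, against 26.5, 19.4, 20.8 and 17.4 CPM in the WT-filed libraries. All KO-filed values were higher, and those of B number 2 were far above those of B number 1. The log2 fold change of Gzma was 2.38 ± 0.30 (adjusted p = 0.000326), with 1.62 within B number 1 and 3.21 within B number 2. Prf1, the pore-forming perforin, had 12.8, 12.4, 13.3 and 16.04 CPM in the KO-filed libraries, against 30.7, 32.1, 22.2 and 31.1 CPM in the WT-filed libraries. All KO-filed values were lower, at a log2 fold change of -1.14 ± 0.18 (adjusted p = 0.00177). Gzmc averaged 1.06 ± 0.348 CPM in KO-filed and 7.35 ± 2.62 CPM in WT-filed cells (adjusted p = 0.00313). Gzmc has close copies on chromosome 14, so that its counts may be divided among relatives.

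Gzmb, the main granzyme of killing cells, had 658, 739.9, 1580.4 and 1558 CPM in the KO-filed libraries, against 1209, 1172, 1023 and 960.1 CPM in the WT-filed libraries. The KO-filed libraries lay below the WT-filed range in B number 1 and above it in B number 2. Its log2 fold change was -0.76 within B number 1 and 0.67 within B number 2, and -0.04 ± 0.26 in the fit (adjusted p = 0.972). Of 12 NK-type receptor genes 6 were tested and none was called. Klrd1, the CD94 chain, averaged 3.11 ± 1.36 CPM in KO-filed and 5.53 ± 0.783 CPM in WT-filed cells, with overlapping libraries and an adjusted p of 0.185.

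**Figure D3:**
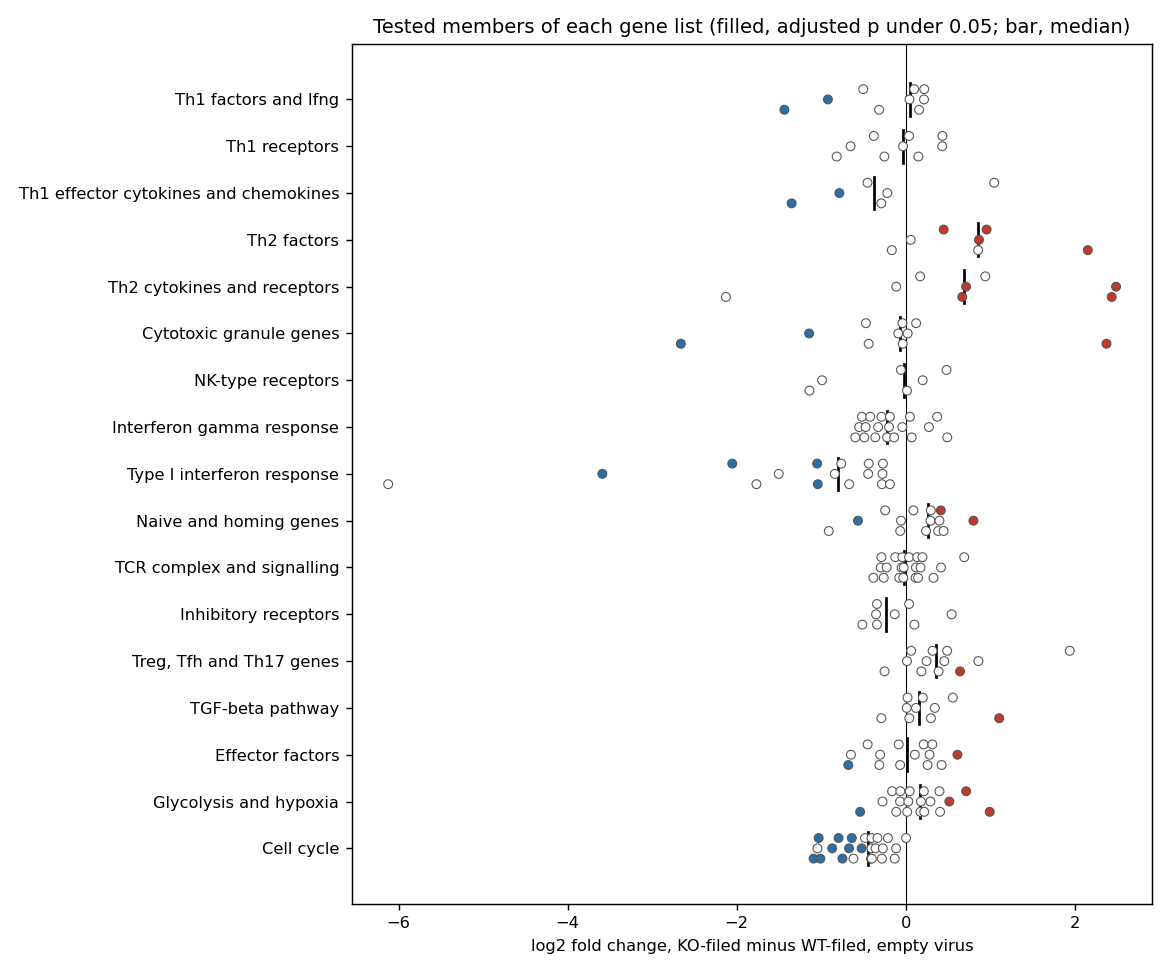
Log2 fold change (x axis, KO-filed over WT-filed, empty virus) of every tested member of 17 gene lists, with the list median as a bar; filled points passed an adjusted p of 0.05 (red higher, blue lower). The Th2 lists hold 8 red and no blue points, the cell cycle list 9 blue and no red, and the lists of receptors, T cell receptor signalling, inhibitory receptors and interferon gamma response hold none; the leftmost open point, Ifi44, had 0 counts in the KO-filed libraries.

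None of the 19 tested interferon gamma response genes was called in either direction in cells with less Ifng RNA, where 3.37% of all genes were called. An unadjusted p under 0.05 was found for 8 of the 19, or 42.1%, against 16.4% of all genes tested. The list had a median log2 fold change of -0.22, with 73.7% of its members negative, against 50.5% of all genes. Gbp2, an interferon-induced GTPase, had 143, 129.7, 121 and 123 CPM in the KO-filed libraries, against 176, 165, 124 and 134 CPM in the WT-filed libraries. The groups overlapped, at a log2 fold change of -0.22 ± 0.12 (adjusted p = 0.369). Gbp5, another of these GTPases, had 51.1, 57.2, 49.6 and 43.98 CPM in the KO-filed libraries, against 73.6, 75.02, 64.2 and 68.7 CPM in the WT-filed libraries. These groups did not overlap, and the gene was not called at a log2 fold change of -0.47 ± 0.13 (adjusted p = 0.0597). With DESeq2 the list likewise had 0 calls, and with each library as a sample it had 1 higher and 4 lower.

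Of 22 type I interferon response genes 16 were tested, 0 were higher and 4 were lower (Zbp1, Usp18, Isg15 and Oas1a), where 1.7% of all genes were lower. An unadjusted p under 0.05 was found for 11 of the 16 (68.8%), against 16.4% of all genes. The median log2 fold change was -0.80, also with the 1 member at 0 counts in KO-filed cells set to its bound. Zbp1, a sensor of Z-form nucleic acid, had 19.8, 22.4, 16.9 and 15.6 CPM in the KO-filed libraries, against 43.8, 41.8, 33.3 and 34.9 CPM in the WT-filed libraries. The groups did not overlap, and the log2 fold change was -1.05 ± 0.15 (adjusted p = 0.000877). Usp18, which removes ISG15 from proteins and limits interferon signalling, had 27.5, 23.9, 26.6 and 25.7 CPM in the KO-filed libraries, against 62.2, 63.4, 43.9 and 48.5 CPM in the WT-filed libraries. It was level in KO-filed cells and higher in B number 1 than in B number 2 of WT-filed cells, with a log2 fold change of -1.04 ± 0.19 (adjusted p = 0.00528). Isg15, a ubiquitin-like modifier, averaged 0.739 ± 0.276 CPM in KO-filed and 3.58 ± 1.45 CPM in WT-filed cells (adjusted p = 0.0287). Oas1a, an antiviral synthetase with close paralogues, had 2 counts over the KO-filed group and 32 over the WT-filed group, a ratio of 0.0659 with an exact 95% counting interval of 0.00765 to 0.258. Without the B number 1 sum of the WT-filed group the list had 1 lower call, and likewise without that of the KO-filed group.

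Of 24 cell division genes, all tested, 0 were higher, 15 were not called and 9 were lower, namely Rrm2, Tyms, Plk1, Ccnb1, Cdk1, Ccna2, Birc5, Cdc20 and Aurkb, with a median log2 fold change of -0.45. Among all genes tested 1.7% were lower. Rrm2, a subunit of ribonucleotide reductase, had 40.2, 56.3, 46.8 and 36.4 CPM in the KO-filed libraries, against 80.3, 80.5, 90.1 and 82.4 CPM in the WT-filed libraries. KO-filed values were lower throughout, and the log2 fold change was -0.87 ± 0.13 (adjusted p = 0.000876). Tyms, which makes thymidylate, had 10.2, 10.97, 12.8 and 11.9 CPM in the KO-filed libraries, against 23.99, 22.4, 27.2 and 23.9 CPM in the WT-filed libraries. Each WT-filed library held more than any KO-filed one, at a log2 fold change of -1.09 ± 0.17 (adjusted p = 0.00163). The mitotic genes Plk1 and Ccnb1 had log2 fold changes of -1.03 ± 0.17 and -1.01 ± 0.19, and those of Cdc20, Birc5, Cdk1, Aurkb and Ccna2 lay between -0.79 and -0.52.

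Mki67, a standard marker of proliferation, behaved differently and was not called. It had 101, 93.02, 111 and 104 CPM in the KO-filed libraries, against 365, 365, 105 and 93.7 CPM in the WT-filed libraries. The B number 1 WT-filed libraries stood far above the other 6, which overlapped, so that the log2 fold change was -1.92 within B number 1 and 0.13 within B number 2 (adjusted p of the fit 0.154). The Mcm genes, which load and drive the replication helicase, had log2 fold changes between -0.40 and 0.01, and none passed the test. Among other uncalled members, Pcna had a log2 fold change of -0.27 and Aurka one of -0.11. Without the B number 2 sum of the KO-filed group the cell cycle list had 0 calls, and without the B number 1 sum of the WT-filed group it had 5 lower ones. DESeq2 gave 4 lower ones.

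**Figure D4:**
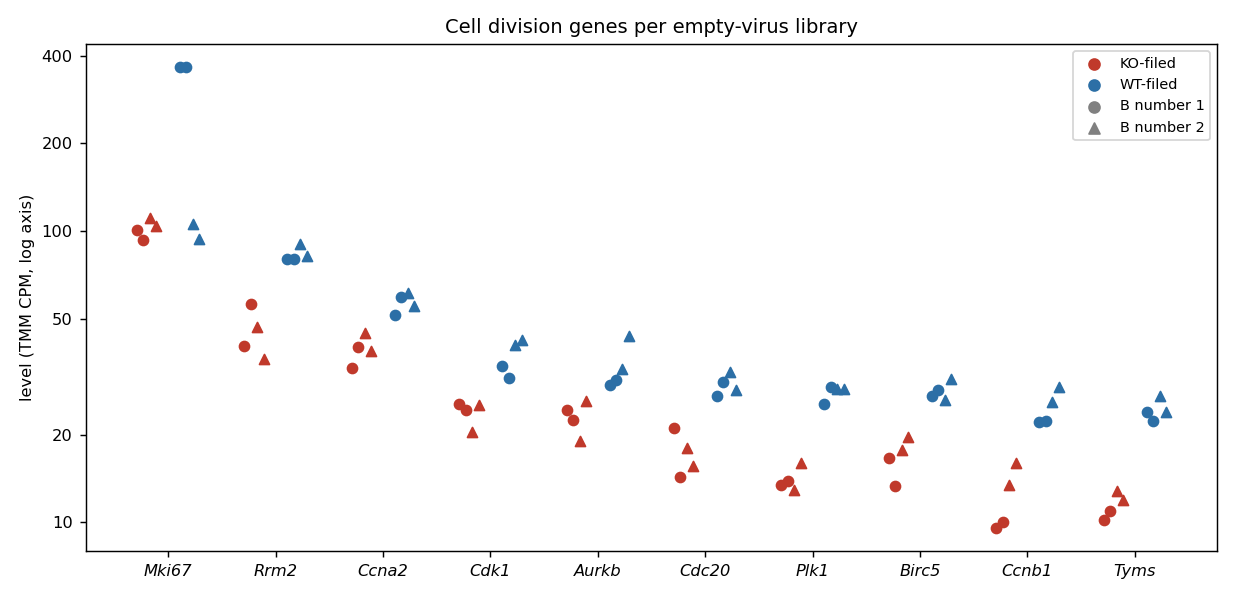
Level of Mki67 and the 9 called cell division genes in each empty-virus library (y axis, TMM-scaled CPM on a log axis; KO-filed red and left, WT-filed blue and right; circles B number 1, triangles B number 2). For the 9 called genes the groups do not overlap, as the choice of called genes largely fixes. For Mki67, which was not called, the B number 1 WT-filed libraries at 365 CPM stand above all the others.

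Among 19 glycolysis and hypoxia genes, all tested, 3 were higher and 1 was lower, with a median log2 fold change of 0.17. Bnip3, a mitophagy receptor induced by low oxygen, had 76.6, 77.3, 102 and 91.9 CPM in the KO-filed libraries, against 43.8, 35.2, 54.04 and 43.8 CPM in the WT-filed libraries. The groups did not overlap, and the log2 fold change was 0.99 ± 0.16 (adjusted p = 0.00177). Egln3, an oxygen-sensing prolyl hydroxylase, averaged 394 ± 58.3 CPM in KO-filed and 241 ± 36.1 CPM in WT-filed cells (adjusted p = 0.00437). Gpi1, the second enzyme of glycolysis, averaged 562 ± 2.00 CPM in KO-filed and 393 ± 45.3 CPM in WT-filed cells (adjusted p = 0.0452). Hk2, the inducible hexokinase, had 368, 375, 308 and 311 CPM in the KO-filed libraries, against 510.0, 526, 473 and 459.7 CPM in the WT-filed libraries. It was lower in each KO-filed library, at a log2 fold change of -0.54 ± 0.12 (adjusted p = 0.0209). Without the B number 2 sum of the KO-filed group the list had 0 calls.

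None of 21 T cell receptor complex and signalling genes and none of 8 tested inhibitory receptor genes was called, which is near the 3.37% of all genes. An unadjusted p under 0.05 was found for 6 of the 21 (28.6%) and 4 of the 8 (50%), against 16.4% of all genes, and the medians of the lists were -0.02 and -0.23 on the log2 scale. Of 14 tested naive and homing genes, Itgb7 and Lef1 were higher and Itga4 was lower. Itgb7, the beta chain of the gut-homing integrin, had 148, 147, 159.6 and 145 CPM in the KO-filed libraries, against 83.8, 89.01, 95.1 and 78.96 CPM in the WT-filed libraries. Its values were tight in both groups, at a log2 fold change of 0.80 ± 0.14 (adjusted p = 0.00409). Itga4, the alpha chain that pairs with it, had 46.6, 44.8, 55.8 and 53.1 CPM in the KO-filed libraries, against 84.3, 76.2, 60.04 and 71.4 CPM in the WT-filed libraries. It was lower in each KO-filed library, more so in B number 1, at a log2 fold change of -0.56 ± 0.14 (adjusted p = 0.0391), and its call was lost in 11 of 19 alternative analyses. Lef1, a factor of naive T cells, was higher by 0.42 ± 0.11 on the log2 scale with an adjusted p of 0.0497, and that call was lost in 13 of 19 alternative analyses.

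Of 10 TGF-beta pathway genes 1 was higher, Tgfbr1, the signalling type I receptor, which had 13.4, 16.2, 16.3 and 17.2 CPM in the KO-filed libraries, against 6.91, 6.61, 10.2 and 6.49 CPM in the WT-filed libraries. The groups did not overlap, and the log2 fold change was 1.11 ± 0.19 (adjusted p = 0.00377). Among 12 tested Treg, Tfh and Th17 genes Il21, a helper cytokine for B cells, was higher at 221 ± 53.3 CPM in KO-filed and 141 ± 22.8 CPM in WT-filed cells (adjusted p = 0.0084). Of 14 tested effector factors, Id2, an inhibitor of E proteins, was higher by 0.61 ± 0.14 and Prdm1, which encodes Blimp-1, was lower at -0.68 ± 0.15, both on the log2 scale (adjusted p = 0.0237 and 0.0207).

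The cells carried the markers of CD4+ T cells. Cd4 had 337, 358, 292 and 298 CPM in the KO-filed libraries, against 415, 429, 405 and 414 CPM in the WT-filed libraries, and Cd3e lay between 135 and 170 CPM in all 8 libraries. Both were measured in every library, and their adjusted p values were 0.0826 and 0.383. The summed level of the 10 identity genes was 2372 to 2438 CPM in KO-filed and 2341 to 2558 CPM in WT-filed libraries, and 1 of them, Thy1, was lower (log2 fold change -0.61 ± 0.11, adjusted p = 0.00483). The myeloid marker Lyz2 had 0 and 1 counts over the KO-filed and WT-filed groups, and the NK cell marker Ncr1 had none. The summed myeloid markers were 4.77 to 6.41 CPM in KO-filed and 6.84 to 9.52 CPM in WT-filed libraries. Those of NK cells were 1.92 to 4.29 CPM in KO-filed and 0.777 to 1.39 CPM in WT-filed libraries. In both lists the groups did not overlap, with KO-filed sums lower for myeloid and higher for NK markers. The summed CD8 markers were 2.86 to 7.02 CPM in KO-filed and 3.11 to 6.47 CPM in WT-filed libraries. The summed level of the 10 B cell markers was 99.7 to 108 CPM in KO-filed and 75.5 to 94.3 CPM in WT-filed libraries, which did not overlap, and none of the markers was at 0 throughout. Of these, Ebf1, a B cell transcription factor, averaged 41.1 ± 4.92 CPM in KO-filed and 44.1 ± 9.84 CPM in WT-filed cells, and Ighm, the IgM heavy chain gene, 15.7 ± 2.28 CPM in KO-filed and 10.9 ± 0.406 CPM in WT-filed cells, neither called. H2-Ab1, a class II gene on the B cell list, was higher at 44.7 ± 7.52 CPM in KO-filed and 25.8 ± 6.57 CPM in WT-filed cells (adjusted p = 0.0103). The part of B cell markers in the other results was not tested. The summed handling stress genes were 6919 to 7056 CPM in KO-filed and 6919 to 7409 CPM in WT-filed libraries, with none of 12 tested members called.

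Gamma-delta T cell receptor genes differed. Of 6 markers, 4 were tested, 0 were higher and 3 lower, and the summed level was 1.74 to 3.21 CPM in KO-filed and 10.3 to 17.8 CPM in WT-filed libraries. Trdc, the delta constant gene, had 1.28, 1.91, 1.26 and 2.75 CPM in the KO-filed libraries, against 8.72, 7.19, 5.54 and 6.15 CPM in the WT-filed libraries. The groups did not overlap, at a log2 fold change of -1.91 ± 0.34 (adjusted p = 0.00412). Tcrg-C4 had 0 counts over the KO-filed group and 36 over the WT-filed group, at least 11.4-fold lower, and Tcrg-C1, which was not tested, had 0 and 13. Tcrg-C2 had 1 and 37 counts, a ratio of 0.0285 with an exact 95% counting interval of 0.000703 to 0.169, and its near-identical copies make its count uncertain. Trdv4 was at 0 in all 8 libraries. The part of these markers in the lower Prf1 and Gzmc levels was not tested.

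In depth the groups overlapped, with 1598409 to 6131170 gene counts per library in KO-filed and 2360254 to 4830605 in WT-filed cells. Mitochondrial genes took 10.8 to 12.9% of counts in KO-filed and 11.2 to 14.2% in WT-filed libraries, and the 10 most abundant genes 41.1 to 44.3% and 37.6 to 47.8%. The KO-filed libraries of B number 1 were the shallowest pair. Libraries of the same B number differed by more than counting noise (chi-square per degree of freedom 1.26 to 2.41, where counting noise alone gives 1), and libraries of different B numbers differed more, by 3.57 to 6.17 in KO-filed and 12.9 to 16.6 in WT-filed cells.

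All 380 called genes had the same sign within B number 1 and within B number 2, which the choice of called genes largely fixes, since the fit had 1 sum of each B number a group. For 57 of the 378 that were tested for it (15.1%), the KO-filed minus WT-filed difference itself was different between the B numbers, against 9.41% of all 11084 genes in that fit (4.66% with a larger value in B number 2 and 4.75% with a smaller one). This fit treats single libraries as samples, so its p-values measure the spread between T numbers, and sex moves with B number.

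**Figure D5:**
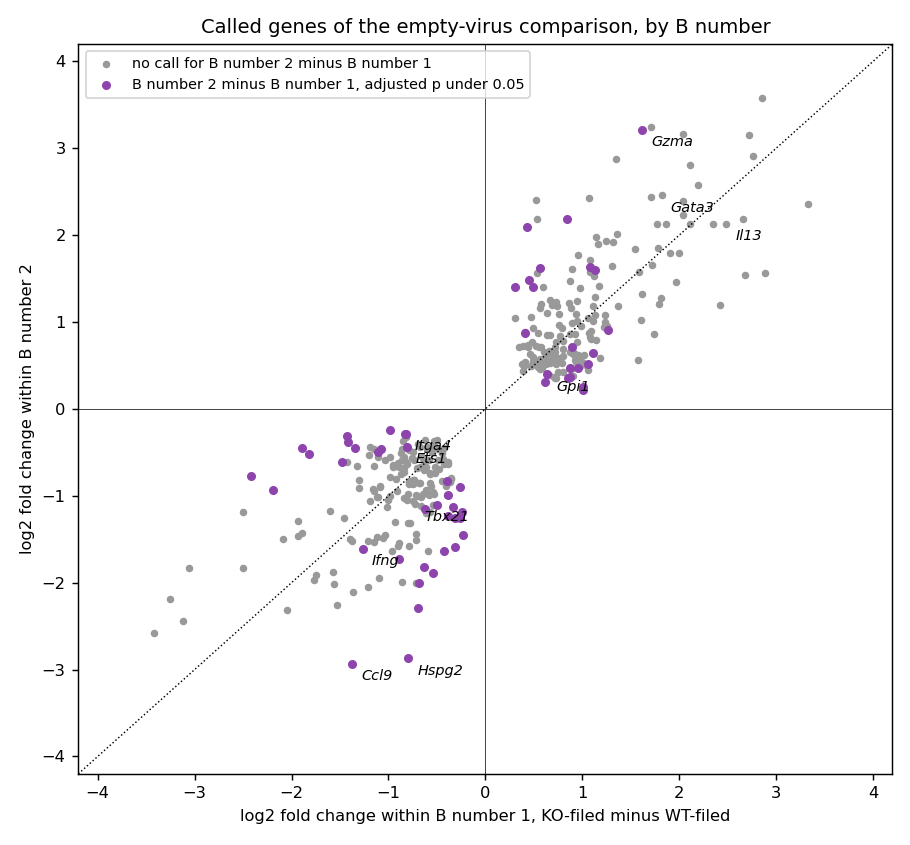
Log2 fold change of each called gene within B number 1 (x axis) and within B number 2 (y axis), KO-filed over WT-filed, Gm27162 left out; the dotted line marks equal values and purple points passed the test of the difference between B numbers. All points lie in the lower left or upper right of the plot, as the choice of called genes largely fixes, and Gzma, Ccl9 and Hspg2 lie farther from 0 in B number 2.

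The untransduced cells of the same run and the first Th1 experiment gave the same contrast in other libraries. In untransduced cells 120 genes were higher (1.06%) and 138 lower (1.22%), together 2.29%. In the first experiment 272 of 12616 were higher (2.16%) and 190 lower (1.51%), together 3.66%. All libraries of the first experiment carry B number 1, so its SEs and p-values measure the spread between T numbers only. Of the 380 genes called with empty virus, 144 were called in the same direction in untransduced cells, which is 37.9% of the empty-virus calls and 55.8% of the untransduced ones, and 0 in the opposite one. With the first experiment 97 were shared in direction, 25.7% of the 377 empty-virus calls tested there and 23.7% of the 409 first-experiment calls tested here, and 1, the mitotic gene Ckap2l, was opposite. The cultures of the run may share animals, since the B numbers recur, while their libraries are separate.

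For Ifng the log2 fold change was -1.63 ± 0.20 in untransduced cells and -1.38 ± 0.19 in the first experiment, next to -1.43 ± 0.20 with empty virus. For Gata3 it was 1.48 ± 0.25 in untransduced cells and 0.84 ± 0.20 in the first experiment, next to 2.16 ± 0.21. For Gzma it was 2.33 ± 0.36 and 0.80 ± 0.16, and for Prf1 -1.33 ± 0.24 and -2.27 ± 0.24, all called. Tbx21 was called in untransduced cells (-0.67 ± 0.14) but not in the first experiment (-0.51 ± 0.14, adjusted p = 0.0557). Ccl4, Ccr4, Il24 and Zbtb32 were not called in the first experiment, where Zbtb32 had the opposite sign (-0.30 ± 0.12). The type I interferon list had 1 lower call in untransduced cells and 1 in the first experiment. Of the 9 cell cycle genes called with empty virus, Rrm2, Ccnb1, Birc5 and Ccna2 were also called lower in untransduced cells, where 5 of the list were called. Tyms, Plk1, Cdk1, Aurkb and Cdc20 were not called there, with log2 fold changes between -0.75 and -0.48. An unadjusted p under 0.05 was found for 21 of the 24 in untransduced cells (87.5%), against 16% of all genes, with a list median of -0.65. With empty virus it was found for 16 of the 24 (66.7%), against 16.4%, with a median of -0.45. The first experiment had 0 calls among 24. In it 4 of the 24 (16.7%) had an unadjusted p under 0.05, near the 16.1% of all genes in that comparison. For Il18rap and Klrd1, which missed the threshold with empty virus, the first experiment gave log2 fold changes of -1.47 ± 0.24 and -2.19 ± 0.34, both called. In all, 51 genes were called in the same direction in the 3 comparisons, 27 higher and 24 lower, among them Ets1, Ifng, Ccl3, Prf1, Muc13, App, Gata3, Il13, Ccr8, Dsg2 and Cd24a.

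The test of whether the genotype difference with empty virus differed from that without virus called 0 of 11275 genes with edgeR, where 330 had an unadjusted p under 0.05. The count was 0 with DESeq2 as well. The difference was 0.20 ± 0.28 for Ifng, 0.14 ± 0.19 for Ets1, 0.68 ± 0.33 for Gata3 and 1.11 ± 0.39 for Il13 on the log2 scale. For Fscn1 it was -1.29 ± 0.34. None of these passed the test after adjustment over all genes, which does not show that the virus left the genotype difference as it was.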

How the data were processed

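The deposited files are gene count tables that the authors made with STAR 2.5.0a on GRCm38, per the submitters' processing notes, from a stranded total RNA kit. Each has 45706 genes with whole-number counts in 3 columns, regardless of strand and on either strand alone. The column with 93.8 to 94.9% of the 2 strands' counts in the 8 libraries was used. Its 4 summary lines (65.8 to 72.5% of each total) were left out. Symbols came from GENCODE M21 for 45143 genes, and 563 had no match. Counts were summed over T numbers within a B number, and edgeR 4.0.16 (R 4.3.3, TMM, filterByExpr, quasi-likelihood test, Benjamini-Hochberg adjustment) was fitted to the 12 sums of the 6 groups of the run with B number, and with it the sex given in the file names, as a block; the first experiment was fitted by library, without a block. The SE is the fold change over the root of F. CPM are counts per 1000000 gene counts after TMM scaling. DESeq2 1.42.0, other scaling, filters, strand choices and left-out samples were tried, and the code was tested on simulated data.

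The members, lists and tests were chosen with earlier results of these data known. Named genes are Ets1, Gm27162, Fli1, Ifng, Tbx21 and Gata3, the 10 largest increases and 10 largest decreases among called annotated genes of at least 5 CPM in the higher group with the same sign in both B numbers, called list members, and a few uncalled members of described lists. The test of the difference between B numbers was added after the data were seen. Defining markers of NK and erythroid cells were too low to be tested; sums of those lists were 1.92 to 4.29 and 0 CPM in KO-filed, and 0.777 to 1.39 and 0 to 0.462 CPM in WT-filed libraries, and those of the myeloid list 4.77 to 6.41 and 6.84 to 9.52 CPM.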

Additional observations from a re-analysis of the deposited data

Results flagged for a closer look

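The KO-filed minus WT-filed difference was not the same in both B numbers for 9 of the 73 named genes, by a test of the difference itself in a fit over single libraries, whose spread is that between T numbers only. On the log2 scale, B number 2 minus B number 1, it was 2.07 for Mki67 (adjusted p = 3.75e-40), 1.599 for Gzma (adjusted p = 6.03e-11), 1.45 for Gzmb (adjusted p = 1.56e-57), 0.55 for Itga4 (adjusted p = 0.025) and 0.38 for Ets1 (adjusted p = 0.000438). It was -0.23 for Gpi1 (adjusted p = 0.0241), -0.33 for Ifng (adjusted p = 5.35e-05), -1.68 for Ccl9 (adjusted p = 0.0248) and -2.60 for Hspg2 (adjusted p = 0.0228). Gzmb and Mki67 changed sign between the B numbers, and the others kept it. Sex moves with B number, and the WT-filed libraries alone also differed between B numbers, with 550 genes higher and 546 lower in B number 2. In the KO-filed libraries 329 were higher and 324 lower.

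In 9 of 144 sets of 4 libraries with a range above 0, 1 library stood apart by Dixon's test at its 95% critical value, where chance flags about 1 in 20. The gap over the range was 0.885 for Tbx21, 0.863 for Prf1, 0.888 for Tgfbr1, 0.86 for Plk1 and 0.842 for Stat4 in WT-filed libraries. It was 1 for Tcrg-C2, which had its single count in 1 library, 0.854 for Isg15, 0.913 for Fam19a3 and 0.844 for Pparg in KO-filed libraries. The WT-filed library B2T1 was the lowest for Tbx21 and Prf1 and the highest for Tgfbr1.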

How the results depend on the processing

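Of the 60 named genes called with empty virus, 14 kept their call under all alternatives, among them Gata3, Ifng, Il13, Ccr8, Gzma, Dsg2, Cd24a, Muc13, Ccl3, Nfil3, Fscn1 and Zbp1, and 46 lost it under 1 or more; no called gene changed direction. The count of 380 calls was 186 with DESeq2, 176 with only the 4 empty-virus sums, 655 with no filter on low counts and 1353 with each library as a sample (371 of the 380 were among these). Leaving out a sum or a library gave 73 to 359 calls, with 73 and 227 without the KO-filed sums of B numbers 2 and 1, and 128 and 236 without the WT-filed sums of B numbers 1 and 2. The 258 untransduced calls were 170 with DESeq2, 541 with each library as a sample, 531 with no filter, and 241 to 293 with empty-virus samples left out. The 0 calls for empty virus minus untransduced were 1 with each library as a sample (Spp1, chosen after its value was seen), 16 with no filter, many of them small RNA genes, and 0 with samples left out. The 462 calls of the first experiment were 176 to 469 with a library left out, lowest without WT replicate 1, and 226 without KO replicate 1.

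As to the replicate block, correlations of same-numbered deviations between groups were 0.0358 to 0.281, and 0.0904 for the empty-virus pair, so the B numbers share a sex in the file names but are not shown to pair cultures. Without the block the empty-virus count was 268 and the untransduced one 188. The first experiment with the T number as a block had 566. Fli1 reversed to 0.038 and 0.066 among left-out samples (-0.18 to 0.066 in all). Gzmb reversed to 0.063 without the block, and to 0.37 and 0.40 without a B number 1 sum (-0.52 to 0.40 in all). The cause was not tested. Il4, Il5 and Tcrg-C1 had too few counts at this depth to be tested.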
